A study of Rattus norvegicus with 85 samples.

Results

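RNA editing was compared between newborn and adult control rats in the prefrontal cortex (PFC), the frontal region that serves planning and control of behaviour. The newborn group held 5 samples taken on the day of birth (labelled P0) from F1 pups of control dams, 1 female and 4 males, and the adult group held 5 samples labelled P60 from F0 control females that had not been stressed. These 10 samples of the 85 in the series were chosen by their labels for region, age, generation and treatment. The tissue was taken as bilateral punches from frozen brains. Age therefore goes together with generation, because the newborns are offspring of control dams and the adults belong to the dams' generation, and for 4 of the 5 newborns it also goes together with sex. Control samples of the amygdala and PFC females of the pre-reproductive stress (PRS) groups were used as well, where named. PRS newborns were F1 pups of dams stressed before mating, and PRS adults were F0 females that had themselves been stressed in adolescence.

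Adenosine deaminases acting on RNA (ADARs) change adenosine to inosine in double-stranded stretches of a transcript. Inosine is read as guanosine by the ribosome and by the sequencer, so G is seen where the genome has A, and an edited codon can give another amino acid, which is called recoding. In the brain, recoding is best known in glutamate, GABA and serotonin receptors and in ion channels, where it alters permeability, gating or coupling, whereas most other edited sites lie in the untranslated parts of transcripts, often in inverted repeats. The editing level is the share of reads at a site that carry G, and is given here in percent; differences are given in percentage points. Each level pools the transcripts of all cells in a punch, so a change of editing within cells and a change in which cells supply the transcript cannot be told apart.

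The assay, microfluidic multiplex PCR with deep sequencing (mmPCR-seq), amplifies each edited stretch with its own primer pair before sequencing, so each level rests on the transcripts that carry both primer sites. The gene-specific parts of the primers, without their common tails, are printed for 5 recoding sites on which the comparison below turns, 5′ to 3′ and in lower case.
Gria4 R/G, forward: gagtttcaaaacggcaaggt
Gria4 R/G, reverse: ctggagtccacgatgaatgaa
Gabra3, forward: ttcatctccagggcctct
Gabra3, reverse: cagtgccagaaactctttacc
Gria3 R/G, forward: tgccttgttcactgagtttca
Gria3 R/G, reverse: gagtcgaccatgaacgagtac
Kcna1, forward: aattggacacaatgacaggtac
Kcna1, reverse: tcttcattggcgtcatactgt
Grik2 Q/R, forward: tttgggcatgagctcagaa
Grik2 Q/R, reverse: tgtcatagccaggtttagtcc
The Grik2 pair also covers the Met/Val site 4 bases and a synonymous glycine site 17 bases away, so those 3 sites share an amplicon, although in each of the 10 samples fewer reads covered the glycine site than the Q/R site.

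The files list 179 positions, of which 146 are the study's edited sites. A level was used where at least 50 reads covered the site, and a site was compared where at least 3 samples of each age had such a level, which left 144 sites. The sum of reads at these sites, in which a read is counted at each site it spans, was 683558 to 2684327 for the newborn and 149296 to 1454247 for the adult samples. At the 22 recoding sites of receptors, channels and filamins, the lowest coverage in any sample was 847 reads, where a level of 50% has a 95% Wilson interval from 46.6% to 53.4% and 3 edited reads make 0.354%. No molecular identifiers were used, so PCR copies count as reads and these limits cover counting error only. Samples are named by the replicate numbers of the labels, and values are given in the order 43 (the female), 69, 71, 66 and 68 for the newborns and 19, 20, 32, 17 and 29 for the adults.

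Adult replicate 29 and newborn replicate 43 stood apart from their groups. Replicate 29 had under 50 reads at 11 of the 146 sites, against 2 to 6 in the other adults, and was the lowest of the 5 adults at 55 of the 132 sites measured in all of them. Replicate 43 was the lowest newborn at 61 of 140 such sites. Its library number lies among the first 48 of the series, as do those of all 5 adults, whereas the 4 newborn males lie in another set of 48. Calls that were lost without either sample, or without both, are named beside the site.

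Editing was higher in the adult PFC at 50 of the 144 sites and lower at none, by an exact two-sided Mann-Whitney U test with Benjamini-Hochberg adjustment, separately for nonsynonymous and all other sites, at an FDR of 0.1. That is 34.7% of the sites tested, the background over all classes. Counts within a class are also read against the share of that class, given below. At 40 sites, 27.8% of those tested, every adult sample was above every newborn sample, and at no site was every adult below every newborn. The largest difference was 43.28 points, at the R/G site of Gria4, and the median difference over the 144 sites was 1.30 points. With 5 samples against 5, the smallest p that the exact test allows is 0.00794. That value, adjusted to 0.0191 among nonsynonymous and to 0.0372 among the other sites, belongs to each called site measured in all 10 samples whose groups did not overlap.

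Averaged over the 131 sites measured in all 10 samples, the level was 8.70% ± 0.741 (SD, n = 5) in the newborn and 14.4% ± 0.389 (SD, n = 5) in the adult samples. The newborn means lay between 7.68% and 9.46% and the adult means between 13.8% and 14.7%, so the groups did not overlap. Over the 22 recoding sites of receptors, channels and filamins the means were 34.2% ± 4.83 at P0 and 52.4% ± 1.14 at P60 (SD, n = 5). The newborn female had the lowest newborn mean there, 27.2%, and the males ranged from 31.6% to 39.5%.

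**Figure D1:**
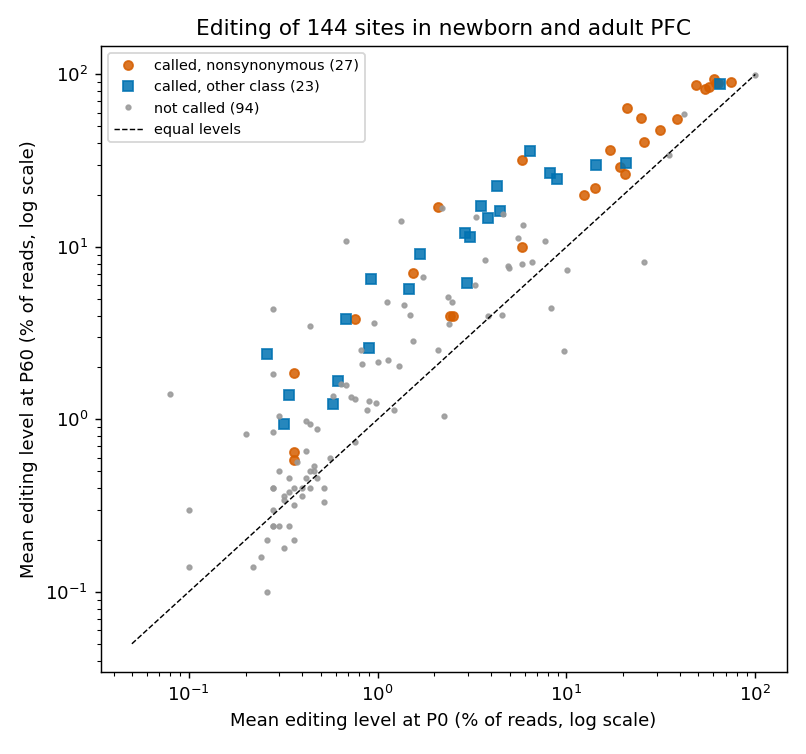
Mean editing level at P60 (vertical axis) against P0 (horizontal axis) for the 144 sites, in percent of reads on log scales, coloured by call and class; the dashed line marks equal levels. The 50 called sites all lie above the line, and the 94 others lie on either side of it.

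By class, 27 of the 41 nonsynonymous sites were called, against 4 of 16 synonymous sites, 17 of 73 sites in 3′ untranslated regions (3′ UTR), 2 of 6 in 5′ UTRs, none of 7 intergenic sites and not the intronic site of Dffa. Sites were also grouped by their mean over all 10 samples. With a mean between 10% and 50%, 18 of 21 sites were called, above 50% 8 of 10, between 1% and 10% 19 of 64, and below 1% 5 of 49. Higher adult levels raise this mean themselves, so a link between calls and level was not tested by these counts. At 44 sites both group means were under 1%, and 3 were called among these.

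AMPA receptors carry most fast excitatory transmission, and 6 of the 10 sites in their subunits were called, 3 of 5 nonsynonymous and 3 of 5 synonymous ones, with a median difference of 1.17 points over the 10. The R/G site lies next to the alternatively spliced flip/flop exons and is known to speed recovery from desensitization. At Gria4 R/G (chromosome 8, position 994881, rn4) the level was 16.8, 20.2, 28.1, 24.5 and 14.5% in the newborn samples and 60.3, 62.6, 66.5, 57.0 and 74.1% in the adult samples. The means were 20.8% ± 5.55 and 64.1% ± 6.57 (SD, n = 5), a difference of 43.28 points (SE 3.85), and the lowest adult was far above the highest newborn.

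At Gria3 R/G (chromosome X, 3477800) the newborns had 50.4, 65.5, 67.6, 64.4 and 55.0% and the adults 93.1, 94.9, 93.6, 91.8 and 96.5%, a difference of 33.4 points (SE 3.43). At Gria2 R/G (chromosome 2, 172272247) they had 28.2, 43.6, 49.3, 41.8 and 29.2% against 54.7, 54.2, 56.6, 55.5 and 54.6%, a difference of 16.7 points (SE 4.18). The SD at that site was 9.30 in the newborns and 0.952 in the adults, so the newborn spread was the wider there. Over the 144 sites the SD was larger in the newborns at 27 and in the adults at 117. The order of the subunits differed with age as well. Gria2 was edited more than Gria4 at the R/G site in all 5 newborns, by 17.6 points on average, and less than Gria4 in all 5 adults, with a mean difference of -8.98 points. Gria3 was the highest of the 3 subunits in all 10 samples, although the sites were read with different primer pairs.

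The base next to each R/G site, a synonymous leucine position, had low levels. It was called in Gria2, with means of 0.580% and 1.22%, and in Gria3, with 0.90% and 2.60%, and not in Gria4, with 0.10% and 0.30%. The Q/R site of Gria2 (chromosome 2, 172288193), which controls the calcium permeability of the channel, was edited nearly fully at both ages. Its levels were 99.6, 99.8, 99.6, 99.6 and 99.3% in the newborns. In the adults they were 100% in replicate 32, 99.5% in replicate 29 and between these in the other 3. The difference of 0.260 points was not called (exact adjusted p = 0.157), and without replicate 29, the adult of 99.5%, it was 0.345 points and was called (exact adjusted p = 0.0317; range over all alternatives 0.0156 to 0.294). Only 4 bases away on the same amplicon, a synonymous glutamine site had 19.4, 23.6, 20.6, 21.6 and 17.6% in the newborns and 27.2, 32.7, 29.1, 27.9 and 36.9% in the adults, without overlap.

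Kainate receptors modulate transmission on both sides of the synapse. All 5 nonsynonymous sites in their subunits were called, against 65.9% of all 41 such sites. The median difference over the 5 was 16.4 points, against 5.5 points over the 41. Over all 7 sites in these subunits it was 15.8 points, against 1.30 points over the 144 sites of all classes. In Grik2 the I/V and Y/C sites lie in the first membrane-spanning segment and the Q/R site lies in the pore. At I/V (chromosome 20, 53408971) the newborns had 51.9, 62.0, 53.9, 54.9 and 46.7% and the adults 82.4, 78.5, 86.5, 86.8 and 78.9%, a difference of 28.7 points (SE 3.05). At Y/C (53408958) they had 58.0, 62.2, 71.4, 64.4 and 55.1% against 92.7, 88.9, 92.0, 93.0 and 81.6%, a difference of 27.4 points (SE 3.53). Y/C was above I/V in every one of the 10 samples, so the pair kept its order while both were higher in adults.

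At Grik2 Q/R (53378633) the newborns had 68.3, 79.5, 79.2, 80.0 and 66.2% and the adults 90.3, 91.9, 89.1, 91.8 and 89.0%, a difference of 15.8 points (SE 3.10). This site was above Y/C in all 5 newborns and in 2 of the 5 adults, so the pore site, ahead at birth, was level with it in adults. At Met/Val, 4 bases on (53378637), the newborns had 0.8, 1.9, 2.1, 1.7 and 1.2% and the adults 7.1, 8.4, 8.4, 7.9 and 3.4%, of which the last is replicate 29. The adult mean was 4.57 times the newborn mean. The synonymous glycine site of the same amplicon was called with means of 2.96% and 6.18%, and the synonymous glutamate site of another amplicon, with 0.440% and 0.500%, was not.

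Grik1 carries a Q/R site (chromosome 11, 27749588) that had 22.9, 44.2, 35.6, 34.1 and 20.5% in the newborns and 55.4, 46.4, 50.8, 55.7 and 30.8% in the adults. The groups overlapped through replicate 29, the adult of 30.8%, and the call was among those nearest to the threshold (exact adjusted p = 0.0844; range over the alternatives 0.00651 to 0.175). The call held without that sample, where the adult mean was 52.1% in place of 47.8%, and was lost when any of the 9 others was left out.

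**Figure D2:**
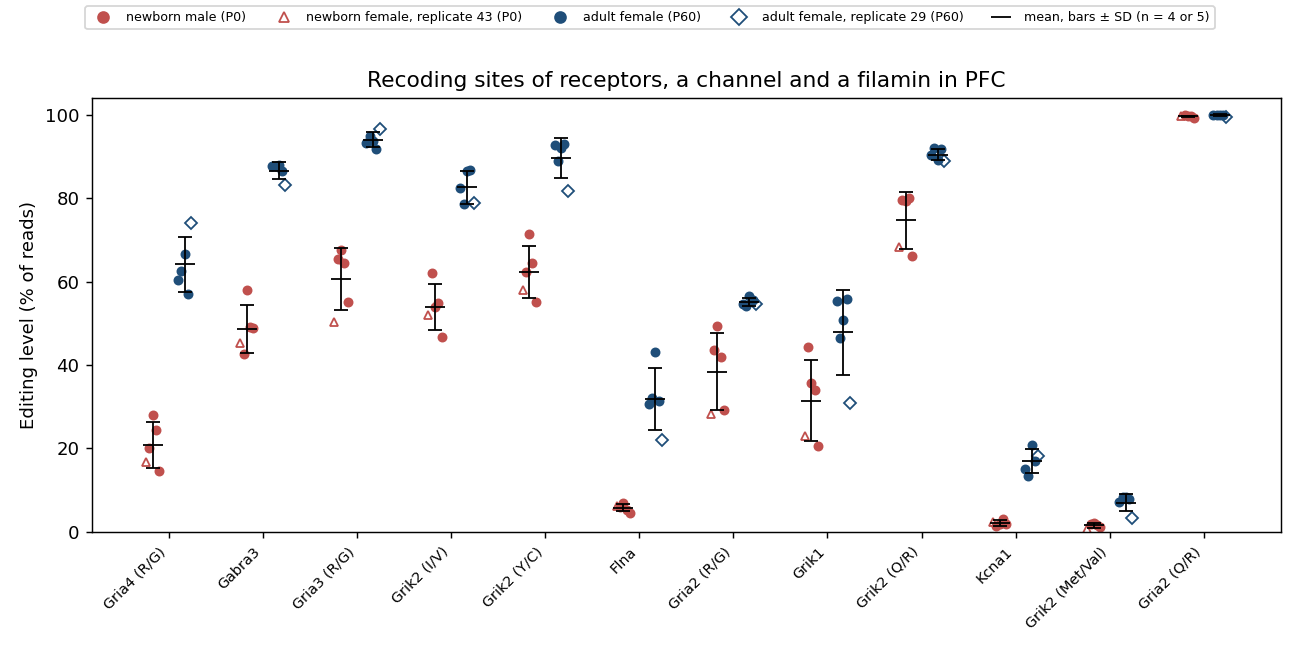
Editing level (vertical axis, percent of reads) at 12 recoding sites in each newborn (red) and adult (blue) PFC sample; open triangles mark the newborn female, open diamonds adult replicate 29, and black bars mean ± SD. At Gria4 R/G the newborns lie between 14.5 and 28.1% and the adults between 57.0 and 74.1%, at Gria2 Q/R both groups lie at 99.3% or above, and at Grik1 replicate 29 lies among the newborns.

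GABA-A receptors carry fast inhibition, and Gabra3 encodes a subunit that is prominent in the developing brain. Its I/M site (chromosome X, 158405626) had 45.2, 42.7, 57.9, 49.0 and 48.8% in the newborns and 87.6, 87.7, 87.9, 86.5 and 83.1% in the adults. The difference of 37.8 points (SE 2.73) was the next largest of the 144 after that of Gria4.

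The serotonin receptor Htr2c is edited at several neighbouring sites in the loop that couples it to G proteins, and more editing is known to lower that coupling. Sites A, B and C were called and D was not, and none of the 4 separated the groups completely. At A (chromosome X, 31041849) the newborns had 34.7, 84.0, 80.3, 64.6 and 54.5% and the adults 91.5, 90.4, 82.9, 91.5 and 89.2%. At B (31041847) they had 29.7, 83.8, 70.4, 59.1 and 41.2% against 84.0, 78.3, 77.9, 80.5 and 99.4%. The newborn spread was wide, with SDs of 20.1 at A and 21.8 at B, against 3.59 and 8.93 in adults, and the newborn female was the lowest at both sites.

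At C (31041842) the newborns had 10.2, 26.8, 32.7, 24.4 and 34.4% and the adults 35.2, 31.0, 35.2, 34.8 and 67.9%. At D (31041837) they had 18.9, 21.9, 52.4, 48.4 and 69.0% against 58.2, 56.4, 51.5, 51.1 and 77.1%. Replicate 29 was the highest adult at B, C and D. Without it the adult mean at C was 34.1% in place of 40.8%, and the calls at B and C were lost. Leaving out 1 sample at a time, the call at B was lost in 9 of 10 fits, all but that without newborn replicate 69, and the call at C in 5, without newborns 43 or 66 or adults 19, 32 or 29. Without replicate 43 the differences were 20.4 points at B and 11.2 at C. Without 43 and 29 together the call at A was lost too, with a difference of 18.2 points (exact adjusted p = 0.104), as it was with pooled reads (exact adjusted p = 0.130). Over all alternatives the exact adjusted p ran from 0.00370 to 0.130 at A, to 0.276 at B and to 0.190 at C. Newborn replicate 68 had the highest newborn level at D and the next to lowest at A, so the sites did not order the newborns alike.

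Sex and library set were held constant in a wider comparison of 4 newborn females with 11 adult females, all from the first 48 library numbers. The newborns were 1 control and 3 PRS pups of stressed dams. The adults were 5 controls and 6 PRS females that had been stressed themselves. Age was permuted exactly within treatment, with PRS newborns and PRS adults in the same stratum. There the Htr2c means were 18.9% and 91.3% at A, 14.9% and 82.7% at B, 7.28% and 37.9% at C and 13.0% and 55.4% at D, and all 4 sites were called (exact adjusted p = 0.00370), D included. These means mix treatments in unequal shares. At A the control newborn had 34.7% and the 3 PRS newborns had a mean of 13.6%, against 89.1% in the control and 93.2% in the PRS adults, and at B the values were 29.7% and 9.97% against 84.0% and 81.6%. In that comparison 67 of 143 sites were called, 46.9%, of which 66 were higher in adults. It shares the control newborn female and all 5 control adults with the comparison of the controls. Azin1, Fabp4, the Q/R site of Cacna1d and Ankrd28 sites 7168464 and 7168727, called between the controls, were not called there.

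**Figure D3:**
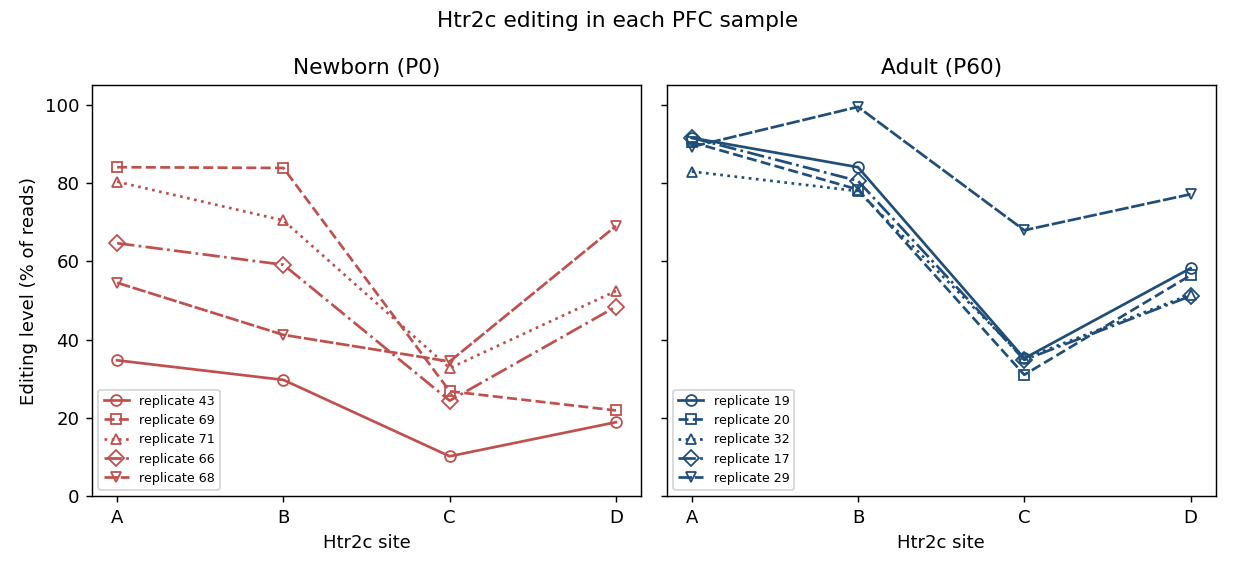
Editing level (vertical axis, percent of reads) at the 4 Htr2c sites (horizontal axis, in transcript order) with 1 line for each sample, newborns left and adults right. Newborn lines spread widely, from 34.7 to 84.0% at site A, while 4 adult lines run close together and replicate 29 lies above them at B, C and D.

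The 3′ UTR of Htr2c holds 2 further sites, and neither was called. The site at 31014486 had means of 7.70% and 10.9%, with 0.2% in replicate 29, and the site at 31014416 stayed under 1% in every sample.

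All 5 nonsynonymous sites of ion channel genes were called, against 65.9% of all 41 nonsynonymous sites. Of the 5, 2 were without overlap, against 17 of the 41. Their median difference was 7.96 points, against 5.5 points over the 41. Kcna1 encodes a voltage-gated potassium channel, and its I/V site (chromosome 4, 163012291) lies in the pore. The newborns had 2.3, 1.3, 1.9, 3.1 and 1.8% and the adults 15.1, 13.5, 20.9, 16.9 and 18.2%, so the adult mean was 8.13 times the newborn mean. Kcnma1, the large-conductance calcium-activated potassium channel, had levels near those of Kcna1 at birth but a smaller difference, from 2.52% ± 0.363 to 3.98% ± 1.06 (SD, n = 5), and its groups overlapped; its call was lost without 43 and 29 together (exact adjusted p = 0.104). The 2 sites could not be told apart by order in the newborns, where Kcna1 was higher in 2 of 5, and Kcna1 was higher in all 5 adults.

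Cacna1d, an L-type calcium channel, is edited at 3 neighbouring sites in its IQ motif. Its I/M site (chromosome 16, 5405840) had 15.7, 18.9, 26.7, 18.8 and 15.6% in the newborns and 28.0, 29.5, 30.4, 29.0 and 29.1% in the adults, without overlap. The Y/C site (5405832) had 14.0, 13.0, 19.0, 13.8 and 10.8% against 18.7, 21.6, 20.6, 19.0 and 30.5%, where the last value is replicate 29 and the overlap is narrow. Without 43 and 29 together that call was lost, with a difference of 5.83 points (exact adjusted p = 0.149). The Q/R site between them had 2.42% ± 0.971 and 3.98% ± 1.34 (SD, n = 5), and its call was lost when any sample but one was left out (exact adjusted p 0.0844, range over the alternatives 0.0343 to 0.336). Cadps primes vesicles for release, and its recoding site was called with a small difference, 20.5% ± 4.29 against 26.4% ± 1.77 (SD, n = 5), and overlapping groups, and its call was lost with pooled reads (exact adjusted p = 0.174).

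Filamins cross-link actin. The Q/R site of Flna (chromosome X, 160382329) had 6.3, 6.0, 7.0, 5.3 and 4.6% in the newborns and 30.6, 32.1, 43.0, 31.3 and 22.1% in the adults, without overlap, an adult mean 5.45 times the newborn mean.

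Among recoding sites of genes with other roles, 6 of 10 (60.0%) were called, against 65.9% of all 41 nonsynonymous sites. Mcrs1, a nuclear protein of chromatin complexes, had 16.7, 15.8, 18.6, 18.8 and 15.4% in the newborns and 35.8, 32.9, 39.5, 35.0 and 38.5% in the adults (chromosome 7, 138004466). Gtf3c2, a subunit of a general factor for RNA polymerase III, had means of 12.3% ± 1.51 and 20.0% ± 3.82 (SD, n = 5), and its synonymous site on the base before had 1.22% and 1.14% and was not called. Copa, a coat protein of transport vesicles, had 5.78% ± 0.402 and 9.92% ± 1.09 (SD, n = 5), and Ccni, a cyclin, 0.360% ± 0.114 and 1.86% ± 0.537 (SD, n = 5). These 4 separated the ages completely.

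The calls at Azin1, 0.360% against 0.580%, and Fabp4, 0.36% against 0.65%, rested on differences of 0.22 and 0.29 points and were lost when most single samples were left out. Over the alternatives the exact adjusted p ran from 0.0191 to 0.221 at Azin1 and from 0.0542 to 0.399 at Fabp4. None of the 3 sites of Blcap was called, although they are recoding sites of similar kind. Its Y/C site had 10.5, 10.2, 12.8, 9.2 and 7.5% in the newborns and 9.1, 5.6, 13.6, 7.4 and 0.9% in the adults, with as few as 68 reads in a sample. Its K/R site was at 43.1% in the newborn female (110 of 255 reads) and between 0.9 and 1.7% in the other newborns. Tm9sf1 was near 0.1% at both ages and was not called.

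Son, a splicing cofactor, and Nova1, a neuronal splicing regulator, had 1 called site among 12 (8.33%), against the background of 34.7%. Of their nonsynonymous sites, 1 of 8 was called, against 65.9% of all 41. The median difference over the 12 was 0.0800 points, against 1.30 points over the 144 sites. At the R/G site of Son (chromosome 11, 31628548) the newborns had 1.2, 0.6, 1.0, 0.7 and 0.3% and the adults 2.7, 3.8, 4.9, 3.1 and 4.5%. The other 7 sites of Son, including those 3, 5 and 10 bases away, were not called, and all 4 sites of Nova1 had group means between 0.240% and 0.400%. At the site 5 bases on, adult replicate 17 had 16.2% (270 of 1665 reads), while the other adults had at most 0.4% and the newborns 0.3 to 0.5%. The site of Son 10 bases on was the uncalled site nearest to the threshold, at 0.360% in newborns and 0.200% in adults (exact adjusted p = 0.116). It was called as lower in adults with unrounded levels (exact adjusted p = 0.0542) and without adult replicate 19 (0.0577) or 32 (0.0592). Over all alternatives that p ran from 0.0542 to 0.653. Nova1 66199121 was called in the females of the same library set, at 0.125% in newborns and 0.309% in adults (exact adjusted p = 0.0452).

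Adarb1 encodes the editing enzyme ADAR2, which edits its own transcript. The 4 sites listed here lie within 18 bases, annotated in the files as 5′ UTR, and behaved differently. At position 11709486 on chromosome 20 the newborns had 66.1, 57.2, 66.1, 68.2 and 68.0% and the adults 84.3, 88.0, 83.2, 86.6 and 99.4%, a difference of 23.2 points (SE 3.54). At the adjoining base, 11709485, they had 13.3, 10.5, 9.8, 20.4 and 17.6% against 26.4, 32.5, 29.5, 28.0 and 31.8%, a difference of 15.3 points (SE 2.34). At 11709472 they had 33.9, 32.5, 27.0, 42.4 and 37.7% against 38.7, 30.7, 39.0, 41.4 and 21.1%. The means there, 34.7% ± 5.77 and 34.2% ± 8.35 (SD, n = 5), differed by less than the spread.

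That site was above 11709485 in all 5 newborns, by 20.4 points on average, and in 3 of 5 adults, by 4.54 points on average. The last site, 11709490, had 0.4, 1.5, 3.7, 4.0 and 2.4% in the newborns and 5.9, 3.9, 4.3, 3.6 and 0.2% in the adults, of which the last is replicate 29, and was not called. In the females of the same library set its means were 0.85% and 3.25%, and it was called (exact adjusted p = 0.0379). The 4 sites share 1 primer pair.

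**Figure D4:**
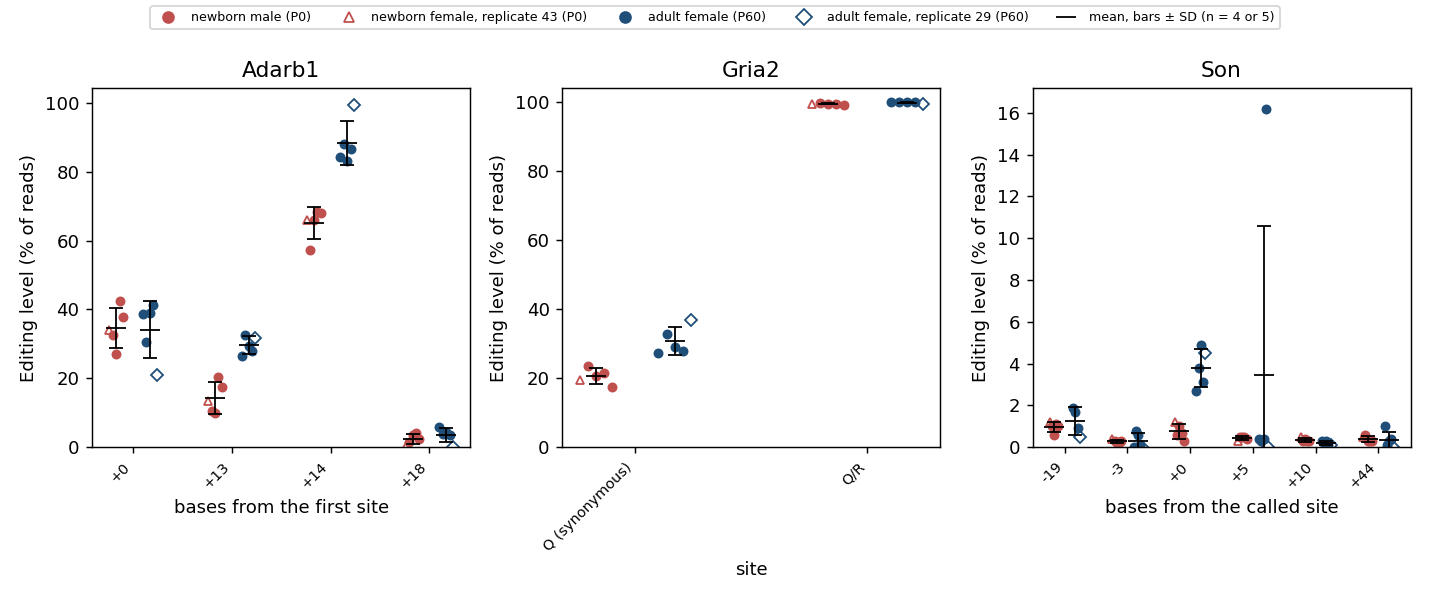
Editing level (vertical axis, percent of reads) at neighbouring sites of Adarb1, Gria2 and Son in each sample, newborns red and adults blue, with mean ± SD in black; open triangles mark the newborn female and open diamonds adult replicate 29. In Adarb1 the site at +14 bases lies between 57.2 and 68.2% in newborns and between 83.2 and 99.4% in adults, while the site at +0 overlaps, and in Son the adults lie between 2.7 and 4.9% at the called site, with 1 adult at 16.2% at +5.

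Across the list, 37 pairs of consecutive sites lay at most 5 bases apart. In 9 of these pairs both sites were called, in 9 a single site was, and in 19 neither was.

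Outside the genes described so far, and apart from Ankrd28 and Plekhd1, 58 sites were tested and 13 were called, all in 3′ UTRs. These were 28.9% of the 45 sites of that class among them, against 23.3% of all 73 sites in 3′ UTRs and the background of 34.7%. The median difference over the 58 sites was 0.680 points. The largest differences among the 58 were in Commd2 and in Mpeg1, a perforin-like gene of macrophages. Commd2 (chromosome 2, 146914339) had 5.7, 7.4, 11.2, 10.0 and 6.6% in the newborns and 22.4, 31.0, 18.3, 25.6 and 36.9% in the adults. Mpeg1 (chromosome 1, 215391800) had 5.4, 3.5, 3.2, 5.0 and 4.4% against 25.7, 23.2, 24.9, 26.0 and 13.0%. Dagla, which makes an endocannabinoid, had 8.7, 11.8, 7.5, 9.7 and 7.0% against 28.0, 25.2, 27.8, 23.0 and 19.2% at its main site (chromosome 1, 212734070), and its site 8 bases away had 0.620% and 1.68%.

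Igf2, a growth factor of fetal tissues, had 4.5, 3.4, 3.0, 3.1 and 3.7% in the newborns and 20.5, 15.9, 18.7, 17.6 and 14.1% in the adults (chromosome 1, 202908966). Pum2, an RNA-binding repressor of translation, had means of 3.08% ± 0.396 and 11.4% ± 1.28 (SD, n = 5). Both adjoining sites of Mmgt1 were called, with means of 1.68% and 9.10% at the first and 0.92% and 6.50% at the next base. Selenot had means of 1.46% and 5.70%, Zfp612 of 0.680% and 3.80%, and Usp29 (65273680) of 0.260% and 2.40%. Atxn3 had 0.340% and 1.38%. In each of these genes every adult was above every newborn.

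The largest difference in the other direction was in the 3′ UTR of Igf1, a growth factor, and it was not called; the site was chosen after its values were seen. It had 40.7, 23.4, 13.0, 13.6 and 37.2% in the newborns and 7.0, 18.1, 6.7, 6.6 and 2.4% in the adults (exact adjusted p = 0.136). With all 10 samples kept, the difference of -17.4 points was called with adjustment over all sites together (exact adjusted p = 0.0994). It was also called among sites with a mean of at least 1% (exact adjusted p = 0.0966). Without adult replicate 20, the adult of 18.1%, the difference of -19.9 points was called (exact adjusted p = 0.0675). In the females of the same library set it was called too, at -19.4 points (exact adjusted p = 0.0379). Over all alternatives that p ran from 0.0379 to 0.269.

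Ankrd28 has 20 listed sites in its 3′ UTR and 4 were called, 20.0%, against 23.3% of all 73 sites in 3′ UTRs and the background of 34.7%. Adult replicate 29 stood apart at most of these sites, above the other adults at some and below them at others. At 7168464 (chromosome 16) the newborns had 6.2, 6.5, 7.4, 6.3 and 5.7% and the adults 16.9, 25.9, 22.2, 14.4 and 99.3%. At 7169218 they had 2.4, 4.5, 4.1, 4.6 and 3.5% against 13.5, 11.5, 11.5, 11.5 and 26.0%. Replicate 29 was thus the highest adult at both, and it was also the highest at 7169220, where the means were 2.92% and 12.0%. At 7168481, in contrast, the other adults had 16.2 to 21.3% and replicate 29 had 0.2%, below the newborns at 3.3 to 5.6%. At the fourth called site, 7168727, replicate 29 had under 50 reads, and the other adults had 11.7 to 27.7% against 3.5 to 5.5%. That call was lost when any of the 9 other samples was left out (exact adjusted p up to 0.154) and with no coverage minimum (exact adjusted p = 0.337).

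The intergenic sites behaved alike. Their mean over 7 sites was 2.27 to 3.26% in the newborns, 5.19 to 16.0% in 4 adults and 0.229% in replicate 29, and no site was called. Among the 6 sites of Plekhd1, none was called, and the largest difference was 10.2 points, at 104488036, where the adults had 24.0, 9.6, 5.5, 15.0 and 0.2% and the newborns at most 1.8%. Without replicate 29, 65 of 143 sites were called, 45.5%, all higher in adults. This added 19 sites, 9 of them in Ankrd28 and 6 intergenic, and removed 4, Htr2c B and C, Azin1 and the Q/R site of Cacna1d.

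**Figure D5:**
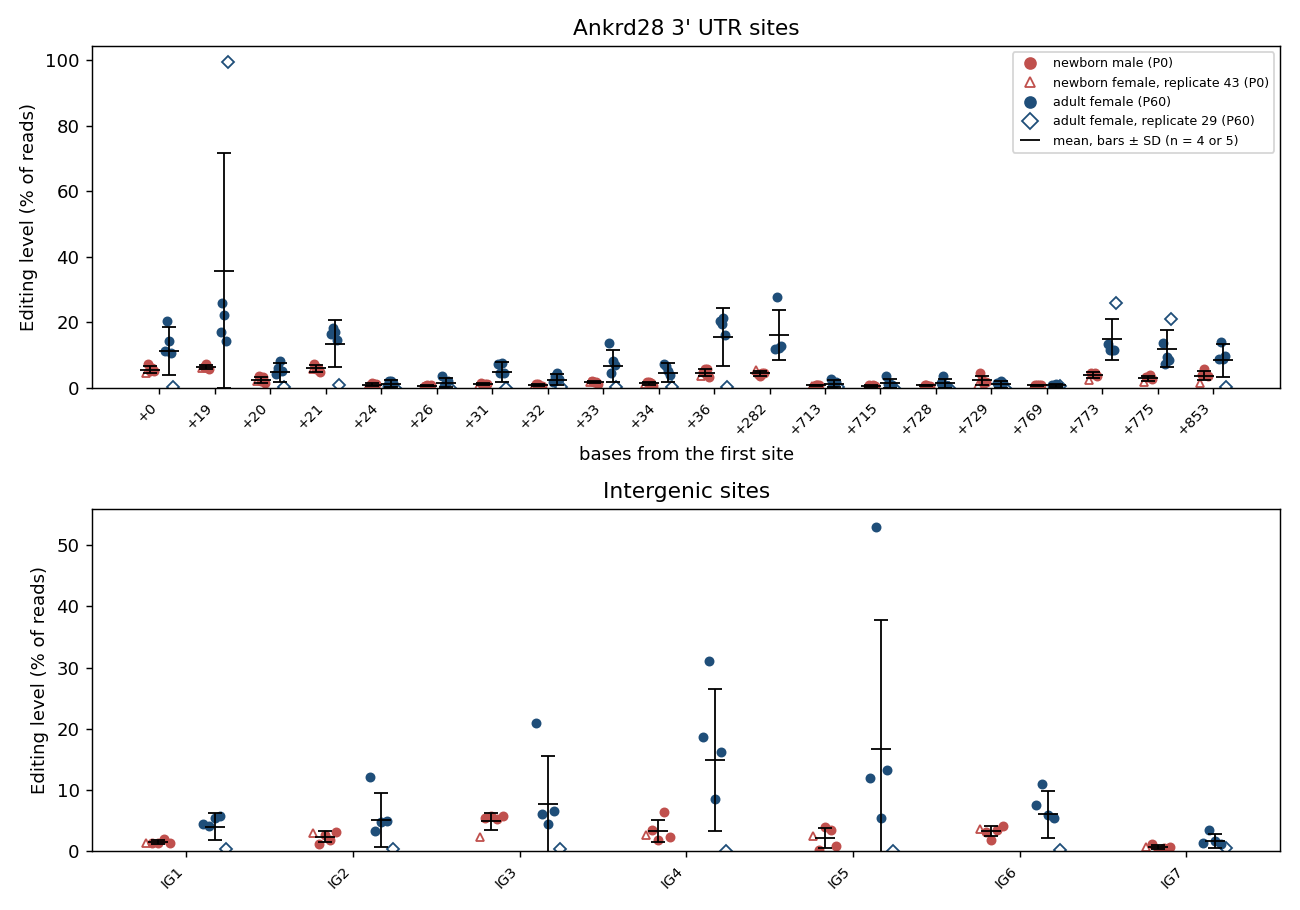
Editing level (vertical axis, percent of reads) at the 20 Ankrd28 sites (top, by distance from the first) and the 7 intergenic sites (bottom) in each sample, newborns red and adults blue, with mean ± SD in black. Adult replicate 29 (open diamonds) lies at 99.3, 26.0 and 21.1% at 3 Ankrd28 sites and near 0 at most of the others and at every intergenic site, while the other adults mostly lie above the newborns.

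The age difference was set against that in the amygdala (AMY), in 5 newborn and 5 adult control samples of that region, by exact permutation of region within age. That permutation treats the regions as interchangeable within an age, so unequal levels or spreads between them also enter its p. The AMY newborns were of both sexes and the AMY adults were females. A difference between regions was called at 1 of 140 sites, 0.714% of those tested, the Q/R site of Grik2 (exact permutation, adjusted p = 0.00126). That site had 74.6% ± 6.79 and 90.4% ± 1.40 in the newborn and adult PFC and 85.3% ± 0.903 and 86.0% ± 1.88 in the AMY (SD, n = 5), so the age differences were 15.8 and 0.720 points. At an unadjusted p under 0.05 there were 17 sites, of which 7 had the larger difference in the PFC. Over the 140 sites the median age difference was 1.32 points in the PFC and 2.21 points in the AMY.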

How the data were processed

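RNA from PFC punches was amplified by mmPCR-seq and sequenced. The authors mapped combined reads with BWA, allowing 9 mismatches, to the rat genome build rn4; the submitters' processing notes also name SAMtools. The deposited files give counts per site (all reads and edited reads) and the editing level as a deposited fraction rounded to 3 decimals, which was multiplied into percent here. The coverage minimum of 50 reads was applied here. Sites are the 146 of the study; for 1 of them the position is taken on the chromosome of the files. The other 33 listed positions did not enter the main comparison. In an alternative adjustment family, the 2 of them that passed the coverage rule were included.

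Levels were compared by two-sided Mann-Whitney U tests, exact over the 252 possible assignments, with tied values given mid-ranks, and Benjamini-Hochberg adjustment over nonsynonymous and over other sites, at an FDR of 0.1; PFC and AMY age differences were compared by exact permutation over 63504 assignments. The labels do not say whether rats shared a litter, so p-values measure the spread between these samples. Library sets are runs of 48 consecutive library numbers in the files' names. The gene groups, named sites and tests were chosen with earlier results of these data known. The named sites are all sites of the receptor, channel, filamin, splicing and other recoding genes (those under 1% in part by range), the 10 largest called differences elsewhere, and the sites nearest to the threshold; values of 2 single sites are not reported here.

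The tests were checked on simulated data with 144 sites: of sites changed by 5, 15 and 30 points, 30.9%, 89.7% and 96.2% were called over 20 simulations each. Of the calls, 5.04%, 3.41% and 4.66% fell on unchanged sites. Sites were drawn independently with a common setting for the spread and with high base levels capped. No sample stood apart as replicate 29 does, so these shares need not hold for sites of wide spread here. In part of these simulations the test between regions was run too. With the change in the PFC alone, it called 12.1%, 80.4% and 95.6% of the changed sites. It also called 2, 1 and 8 unchanged sites in all, and 1 site where none was changed. The alternatives were a permutation of means, the logit scale (levels held between 0.1% and 99.9%), pooled reads, other adjustment families, minimums of 200 reads or 1 read, unrounded levels, an FDR of 0.05, sites measured in all 10 samples or with a mean of at least 1%, females of 1 library set, and each sample left out; leaving out newborn 43 and adult 29 together was added after seeing the data. Statistics used scipy 1.17.1 and numpy 2.4.6, tables pandas 2.3.3 and plots matplotlib 3.10.9, under Python 3.11.15.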

Additional observations from a re-analysis of the deposited data

Results flagged for a closer look

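In 122 groups of 4 or 5 samples at the named sites that were called or had a mean of at least 1%, 1 sample lay far from the others, judged by its gap relative to the group's range, in 18. Chance flags about 1 in 20 such groups, here 6.1, and 9 of the 18 were adult replicate 29.

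Replicate 29 was the highest adult at Ankrd28 7168464, with 99.3% (95% Wilson interval 98.1 to 99.8, 453 of 456 reads) against 14.4 to 25.9% in the others, and at Ankrd28 7169218, with 26.0% against 11.5 to 13.5%. It was also the highest at Cacna1d Y/C, with 30.5% against 18.7 to 21.6%. In Htr2c it had 99.4% at B against 77.9 to 84.0%, 67.9% at C against 31.0 to 35.2%, and 77.1% at D against 51.1 to 58.2%. It was the lowest adult at Gria2 Q/R, with 99.5%, the others reaching up to 100%, at Grik2 Met/Val, with 3.4% against 7.1 to 8.4%, and at Mpeg1, with 13.0% against 23.2 to 26.0%.

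Of the other adults, replicate 32 had 82.9% at Htr2c A against 89.2 to 91.5%, and 7.3% at Blcap 148267329 against 0 to 2.1%. Replicate 20 had 10.2% at Mmgt1 141126032 against 5.4 to 5.8% and 27.7% at Ankrd28 7168727 against 11.7 to 12.8% in the 3 others with at least 50 reads. Replicate 17 had 16.2% at Son 31628553 (interval 14.5 to 18.1, 270 of 1665 reads) against 0 to 0.4%, and 0.3% at Azin1 against 0.6 to 0.7%.

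Among the newborns, replicate 43 had 43.1% at Blcap 148267329 (interval 37.2 to 49.3, 110 of 255 reads) against 0.9 to 1.7%, and 0.2% at Azin1 against 0.4% in each of the others. Replicate 69 had 57.2% at Adarb1 11709486 against 66.1 to 68.2%.

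The age difference at Grik2 Q/R was larger in the PFC than in the AMY by 15.06 points (exact permutation, adjusted p = 0.00126), and the SD in the newborn PFC was 6.79 against 0.903 in the newborn AMY.

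Of the listed positions outside the 146 sites, 29 had under 50 reads in each of the 10 samples. Edited reads above the 3 that a count of 0 allows were seen in Pdcd7 at 2 positions, 0.478% of 18419 reads in newborn replicate 66 and 0.935% of 1176 reads in newborn replicate 68. Both outside positions in Htr2c that were covered in all 10 samples had at most 2 edited reads, 0.0137% of the reads there or less.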

How the results depend on the processing

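Of the 50 calls, 43 held with any single sample left out, and none of the 7 others changed sign. The count ran from 43 to 65 over these 10 fits, and without adult replicate 29 it was 65. In a fit at most 2 of the calls were lower in adults. These were Celf4 and Igf1 without adult replicate 20, Son 31628558 and Blcap 148267368 without 32, and Son 31628558 without 19. The count was 76 with reads pooled over a group's samples, of which 2 were lower in adults and 44 were among the 50, and it lay between 43 and 67 under the other 12 settings. Among those 12, Igf1 was called lower in adults with adjustment over all sites together, with a mean of at least 1% and in the females of 1 library set. Son 31628558 was called lower in adults with unrounded levels. The age difference in mean level over the sites measured in every sample, 5.65 points, ran from 5.26 to 6.13 under other coverage minimums and unrounded levels and from 5.40 to 5.84 with a sample left out. The count of sites whose age difference differed between PFC and AMY was 1 under each of 5 settings and ran from 1 to 3 with a sample left out; it was 3 without newborn replicate 68 or adult replicate 29 and 2 without adult replicates 19 or 20 or newborn AMY replicate 40, and Grik2 Q/R was called each time.

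Of 47 called sites named, 35 kept their call under all 20 settings, and none changed direction. Among the 61 named sites followed here, those that changed direction were not called in the main comparison. Nova1 66199121, under 1% and not followed, was at -0.04 points between the controls. In the females of 1 library set Nova1 66199121 was at 0.184 points and was called (exact adjusted p = 0.0452). Adarb1 11709472 (-0.52 points) was at 2.71 with pooled reads, 6.26 in the females of 1 library set and 2.55 without newborn 43 and adult 29, and from -2.44 to 2.75 with a sample left out. Blcap 148267329 was at 0.334 with pooled reads and 1.75 without those 2 samples, and from -9.43 to 1.12 with a sample left out. Blcap 148267359 was at -0.543 on the logit scale, -0.448 with pooled reads and -0.70 at 200 reads, and from -0.57 to 1.18 with a sample left out. Gtf3c2 25180877 was at 0.353 with pooled reads and 1.51 in those females, and from -0.47 to 0.34 with a sample left out. Htr2c 31014486 was at -0.259 on the logit scale, and Son 31628558 at 0.277 in those females. Son 31628553 was at -0.165 without adult replicate 17 and up to 3.885 with another sample left out. The causes were not tested.

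No paired analysis was possible because the replicate numbers of the labels are not shared between the newborn and adult groups. Depth limits levels under 1%, and age cannot be told apart from generation.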
